A study of Mus musculus with 6 samples.

Results

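The genes described here are the osteoclast effectors and their regulators in RAW264.7, a mouse macrophage-like cell line: Acp5, Ctsk, Mmp9, Atp6v0d2, Dcstamp, Ocstamp, Nfatc1, Tnfrsf11a, Itgb3 and Mitf. These 10 genes were taken by name from the 54532 genes of the deposited tables, and all 10 were found. Of them, 8 passed the filter on low counts, as did 12491 genes in all, while Mmp9 and Itgb3 did not. The series holds 6 bulk RNA-seq libraries of the line: 3 with the genotype WT and no shRNA tag, called RAW as in their titles, and 3 with the genotype ERMAP Knockdown and the treatment tag shRNA, called ERMAP_shRNA. All 6 carry the same treatment text, which speaks of a lentivirus with ERMAP-shRNA, so it is not known whether the RAW libraries had any virus, and a non-targeting shRNA is not mentioned. The design text asks which genes differ after the knockdown of ERMAP. Ermap itself had 12, 12 and 3 counts in the RAW libraries and 10, 21 and 14 counts in the ERMAP_shRNA libraries (log2 fold change 0.81, edgeR adjusted p = 0.929), so a lower Ermap mRNA was not seen behind the label, and directions are those of the libraries labelled ERMAP_shRNA over RAW.

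Osteoclasts are the multinucleated cells that resorb bone, and they form when cells of the macrophage lineage fuse. RANK ligand binds its receptor RANK on the precursor, and signals through TRAF adaptors, NF-kB, AP-1 and calcium-activated calcineurin then raise the transcription factor NFATc1, which works with MITF and PU.1 on the genes for fusion, attachment and acid resorption. RAW264.7 cells are widely used as osteoclast precursors because added RANK ligand turns them into osteoclast-like cells. The labels record no RANK ligand among the treatments.

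The 6 libraries carried macrophage markers, while of 5 late osteoclast markers Calcr and Oscar were at or near 0. Of 8 macrophage markers 7 passed the filter, Mertk had 0 counts in every library, and the markers summed to 7076 to 7355 CPM (counts scaled to the library total with TMM factors) in RAW and 7199 to 7373 CPM in ERMAP_shRNA. Calcr, the calcitonin receptor of mature osteoclasts, had 0 counts in every library, and Oscar, an osteoclast immunoreceptor, had 3 counts over the RAW and 0 over the ERMAP_shRNA libraries. The 5 late osteoclast markers, of which 3 were tested, summed to 353.1 to 464.4 CPM in RAW and 392.4 to 402.3 CPM in ERMAP_shRNA. Nearly all of it was Ckb, a creatine kinase that other cells express too. Atp6v0d2 averaged 12.7 CPM in RAW and 1.81 CPM in ERMAP_shRNA, and Ctsk averaged 1.77 and 0.978 CPM in turn. A count of 0 over the 89767428 counts of the series allows a level of up to 0.0334 CPM, counting error only. Marker lists for osteoblasts, fibroblasts, B cells, T cells, neutrophils, dendritic cells, erythroid and epithelial cells each summed to at most 2.17 CPM in any library. Summed counts ranged from 13447021 to 16602734 per library. RAW replicate 1 stood apart, with 3.69% of its counts from mitochondrial genes against 1.71% to 2.18% in the other 5 libraries, so values without it are also given, for the 8 tested genes of the 10 and for the other named genes whose call changes. The labels do not say whether replicates were separate cultures, so p-values speak of the spread between libraries, which may be technical. In bulk RNA, fewer cells that express a gene and less RNA per cell cannot be told apart.

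Acp5 and Atp6v0d2 fell in the libraries labelled ERMAP_shRNA, and the other 6 tested genes had negative fold changes that did not pass the test. A gene was called at an edgeR adjusted p under 0.05 over all 12491 tested genes. Lower calls numbered 2 of the 8 tested genes, against 0.136% of all tested genes, and higher calls 0 of 8, against 1.01%. The genes were chosen with earlier results of these data known, so such shares are a description and no test of the set. By p before adjustment, again under 0.05, 6 of 8 were lower (3.04% of all tested genes) and 0 higher (3.71%), and DESeq2 called 4 lower (0.568%) and 0 higher (1.62%). The RAW and ERMAP_shRNA libraries did not overlap in CPM, with ERMAP_shRNA lower, for 6 of the 8: Acp5, Atp6v0d2, Dcstamp, Ocstamp, Nfatc1 and Mitf. Over all tested genes 6.47% separated in that direction. The median log2 fold change of the 8 was -0.69, against -0.01 over all tested genes. Without RAW replicate 1 the number called lower was 5 of 8 (2.19% of all tested genes), with Dcstamp, Ocstamp and Nfatc1 added. Without RAW replicate 2 or 3 it was 2 of 8 (0.0862% and 0.0314% of all tested genes), and without ERMAP_shRNA replicate 1, 2 or 3 it was Acp5 alone (0.0312%, 0.031% and 0.0235%). The other filters and scalings called Acp5 and Atp6v0d2, with RLE factors (0.144% of all tested genes), upper-quartile factors (0.16%) and a mean of at least 1 CPM (0.136%), and Ocstamp and Nfatc1 as well with no filter (0.141%). On log2(FPKM + 1) and log2(FPKM + 0.1) limma-trend called Acp5 and Atp6v0d2 (0.144% and 0.128%). Acp5 alone was called by limma-voom (0.128%) and with replicate numbers as a block (0.024%).

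**Figure D1:**
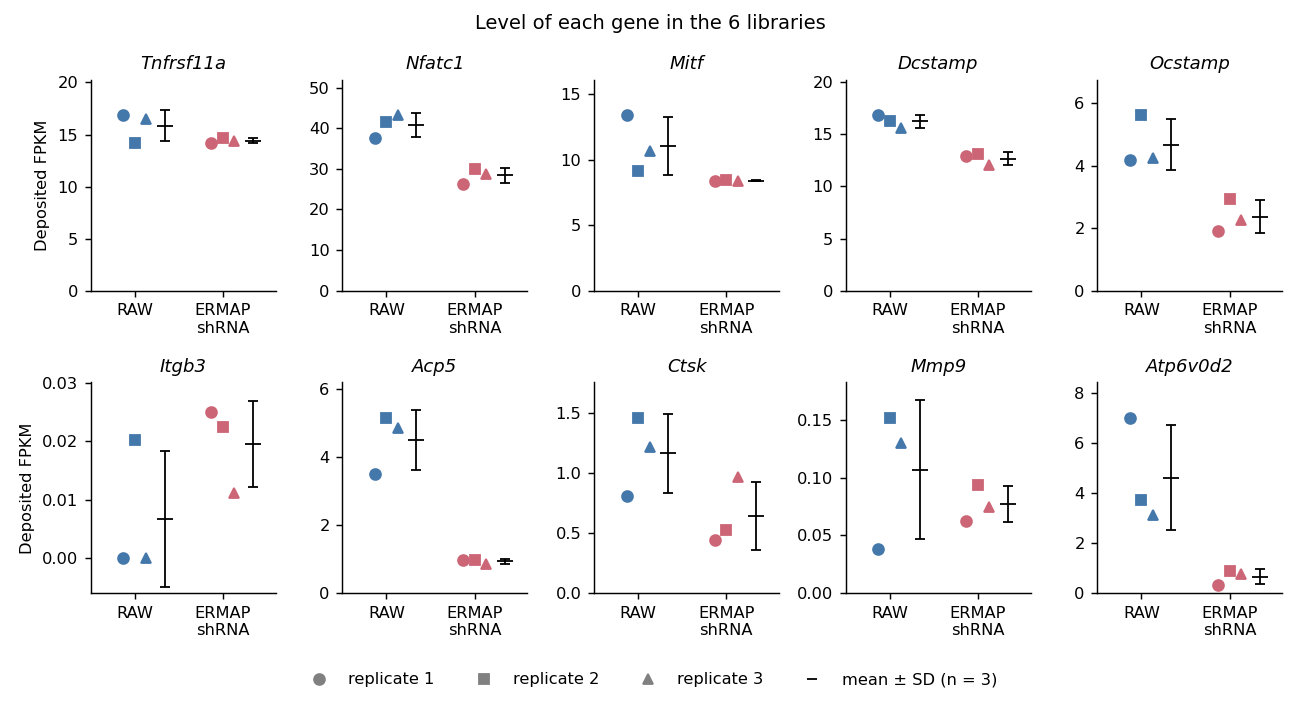
Deposited FPKM (reads scaled by gene length and library total) of the 10 genes in each library, 1 panel per gene with its own linear axis; symbols mark the replicate number, and black bars the mean ± SD over 3 libraries. Acp5 and Atp6v0d2 show the widest relative gap between groups, the Tnfrsf11a, Ctsk, Mmp9 and Itgb3 libraries overlap, and the Itgb3 axis starts below 0 only to show the error bar.

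The genes covered a wide range of levels per length. In the RAW libraries Nfatc1 was highest, at 40.8 ± 2.91 FPKM (mean ± SD, n = 3). Dcstamp at 16.2 ± 0.634 and Tnfrsf11a at 15.8 ± 1.47 FPKM came next, and their libraries overlapped. Mitf, with 13.4, 9.09 and 10.6 FPKM, lay below every library of those genes. Ocstamp, Atp6v0d2 and Acp5 had 4.67 ± 0.821, 4.61 ± 2.10 and 4.50 ± 0.880 FPKM and could not be ordered, since the libraries of neighbours overlapped. Ctsk had 1.16 ± 0.328 FPKM, Mmp9 0.107 ± 0.0601 and Itgb3 0.00675 ± 0.0117 FPKM. So the receptor, the transcription factors and a fusion protein were readily measured, while the secreted proteases and the integrin chain were near the limit of these counts. In the ERMAP_shRNA libraries Acp5 (0.938 ± 0.0772 FPKM) and Atp6v0d2 (0.662 ± 0.294 FPKM) had moved down beside Ctsk (0.644 ± 0.281 FPKM). Libraries of neighbours among these last 3 overlapped, and Tnfrsf11a stood above Dcstamp there without overlap.

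Tnfrsf11a encodes RANK, the receptor through which RANK ligand starts osteoclast formation. The gene lies on the plus strand of chromosome 1 (chr1:105780718-105847981, mm10). It had 102.4, 85.4 and 99.2 CPM in RAW replicates 1 to 3 and 85.6, 88.4 and 86.4 CPM in the ERMAP_shRNA replicates. RAW replicate 2 was as low as the ERMAP_shRNA libraries, and the groups overlapped. The log2 fold change was -0.14 (95% interval -0.37 to 0.09, edgeR adjusted p = 0.937). It was -0.09 without RAW replicate 1 and -0.22 without RAW replicate 2 (edgeR adjusted p = 0.598 and 0.596). Tnfsf11, the gene for RANK ligand, and Tnfrsf11b, the decoy receptor osteoprotegerin, had 0 counts in all 6 libraries.

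Nfatc1, the transcription factor that leads the osteoclast program and raises its own transcription, was the most abundant of the genes. It is a minus-strand gene of chromosome 18 (chr18:80606205-80713071). RAW replicates 1 to 3 had 283.1, 310.6 and 323.8 CPM, and the ERMAP_shRNA replicates 197.6, 224.3 and 215.4 CPM. Every ERMAP_shRNA library was below every RAW library, with a gap wider than the spread within either group. Its log2 fold change of -0.53 (SE 0.10, 95% interval -0.75 to -0.30) had an adjusted p of 0.0527 in edgeR, just over the threshold. Nfatc1 was called lower without RAW replicate 1 (-0.58, edgeR adjusted p = 1.29e-06), with offsets for GC content (-0.57, 0.000655), by DESeq2 and with no filter on low counts. Leaving out any other library gave -0.47 to -0.57 and no call.

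Mitf encodes a helix-loop-helix factor that works beside NFATc1 at osteoclast promoters. It lies on the plus strand of chromosome 6 (chr6:97807052-98021349). The RAW libraries had 84.2, 56.8 and 66.2 CPM, whereas the ERMAP_shRNA libraries were close together at 52.5, 52.4 and 52.2 CPM. The groups did not overlap, but RAW replicate 2 was nearer to the ERMAP_shRNA libraries than to RAW replicate 1. The log2 fold change was -0.40 (SE 0.15, edgeR adjusted p = 0.555), and -0.24 without RAW replicate 1. Of the summed FPKM of Mitf and its relatives Tfe3, Tfeb and Tfec, Mitf made up 47.9%, 30.9% and 34.1% in RAW and 30.6%, 32.2% and 29.9% in ERMAP_shRNA. That share of the family overlapped between groups, with RAW replicate 1 alone far above the rest.

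Dcstamp and Ocstamp encode multi-pass membrane proteins that precursors need in order to fuse into multinucleated cells. Dcstamp lies on the plus strand of chromosome 15 (chr15:39745930-39760938) and Ocstamp on the minus strand of chromosome 2 (chr2:165393760-165400405). Dcstamp had 45.5, 43.7 and 41.8 CPM in RAW and 34.7, 35.1 and 32.1 CPM in ERMAP_shRNA. Ocstamp had 15.4, 20.7 and 15.6 CPM in RAW and 7.02, 10.8 and 8.25 CPM in ERMAP_shRNA. Neither gene's groups overlapped, and Dcstamp had the narrower spread. The log2 fold change of Dcstamp was -0.36 (SE 0.10, edgeR adjusted p = 0.267) and that of Ocstamp -0.99 (SE 0.20, edgeR adjusted p = 0.0885). Neither passed the test with all 6 libraries. Without RAW replicate 1 both were called lower, at -0.34 (edgeR adjusted p = 0.0276) for Dcstamp and -1.07 (0.000213) for Ocstamp. With GC offsets both were called as well, at adjusted p of 0.028 and 0.00559. Per length, Ocstamp made up 19.8%, 25.7% and 21.4% of the summed FPKM of this pair in RAW and 12.9%, 18.3% and 15.8% in ERMAP_shRNA. So the shares did not overlap either: Ocstamp was the smaller part of the pair throughout, and smallest in the ERMAP_shRNA libraries.

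Itgb3 encodes the beta chain of the vitronectin receptor, with which osteoclasts grip bone. The gene lies on the plus strand of chromosome 11 (chr11:104608000-104670476), and it had 0, 2 and 0 counts in RAW and 2, 2 and 1 in ERMAP_shRNA. The ratio of summed counts, ERMAP_shRNA over RAW and scaled to library totals, was 2.65 with an exact 95% interval of 0.434 to 27.8, which covers counting error only. No difference was detectable at this depth.

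Acp5 (ENSMUSG00000001348) encodes tartrate-resistant acid phosphatase, the enzyme stained to identify osteoclasts. It lies on the minus strand of chromosome 9 (chr9:22126727-22135711). RAW libraries had 104, 175 and 150 counts, or 9.21 ± 1.78 CPM (mean ± SD, n = 3), and ERMAP_shRNA libraries had 27, 30 and 26 counts, or 1.91 ± 0.160 CPM. The lowest RAW library was well above the highest ERMAP_shRNA library. The decrease was 4.80-fold (log2 fold change -2.26, SE 0.22, 95% interval -2.77 to -1.76, edgeR adjusted p = 0.00168). Acp5 kept its call in all 16 alternative analyses, with adjusted p of at most 0.0196, and stood at -2.42 without RAW replicate 1. Exons of Acp5 share 137 bases with those of 6530413G14Rik on the opposite strand, and that gene had 5 counts in RAW and 1 in ERMAP_shRNA. Whether the counting used strand is not given in the sources at hand.

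RefSeq gives Acp5 3 start sites, so the sequence before each is shown. That of Ctsk, a gene of the same resorption program, was not planned, since Ctsk was not called, and is shown beside them. Atp6v0d2, the other called gene, had no such sequence in the source used. A link between motifs and fold changes was not tested. The windows are the 250 bases before the start site in GRCm38.p6, the assembly called mm10, written 5′ to 3′ along the transcribed strand, with motif matches in capitals.
Acp5, the first start site (chr9:22135747-22135996, minus strand): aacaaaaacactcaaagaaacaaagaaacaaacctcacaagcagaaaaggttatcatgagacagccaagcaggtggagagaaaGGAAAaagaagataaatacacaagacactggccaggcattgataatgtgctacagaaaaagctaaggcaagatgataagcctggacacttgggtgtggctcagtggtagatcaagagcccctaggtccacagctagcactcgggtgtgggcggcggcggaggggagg
Acp5, the second start site (chr9:22131866-22132115, minus strand): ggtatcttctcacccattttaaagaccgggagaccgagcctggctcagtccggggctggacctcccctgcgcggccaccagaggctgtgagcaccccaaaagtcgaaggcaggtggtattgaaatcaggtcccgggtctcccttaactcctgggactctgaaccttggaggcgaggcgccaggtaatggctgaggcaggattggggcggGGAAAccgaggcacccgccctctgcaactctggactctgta
Acp5, the third start site (chr9:22130599-22130848, minus strand): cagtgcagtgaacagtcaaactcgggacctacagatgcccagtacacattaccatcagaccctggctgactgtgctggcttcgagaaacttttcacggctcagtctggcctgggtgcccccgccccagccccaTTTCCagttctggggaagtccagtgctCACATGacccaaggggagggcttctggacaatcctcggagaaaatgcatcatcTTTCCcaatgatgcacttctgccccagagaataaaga
Ctsk start site (chr3:95498960-95499209, plus strand): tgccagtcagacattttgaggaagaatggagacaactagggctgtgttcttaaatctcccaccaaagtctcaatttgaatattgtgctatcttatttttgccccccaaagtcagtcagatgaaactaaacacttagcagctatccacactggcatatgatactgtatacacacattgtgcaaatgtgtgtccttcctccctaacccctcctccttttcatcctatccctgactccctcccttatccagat
The first window lies before the gene, the second is intronic, and the third is intronic apart from 10 bases of an annotated Acp5 exon. Both strands were searched for GGAAA (the core bound by NFAT factors), TGANTCA (AP-1), and the E-boxes CATGTG and CACGTG, which factors of the MITF family bind. None of these motifs overlapped another in the windows. The third window held GGAAA at -117 to -113 and at -37 to -33, counted from the start site, and CATGTG at -90 to -85. All 3 were on the opposite strand, so the printed strand reads TTTCC and CACATG there. The first and the second window held 1 GGAAA each. The Ctsk window held 0 of the 4 motifs. Among all 32851 windows of this length in the table, 55.6% held GGAAA, 6.75% TGANTCA, 12.3% CATGTG and 6.02% CACGTG. A match describes the sequence and is no evidence of binding. Windows of 4 of the 10 genes were searched, Tnfrsf11a and Mitf being the others beside Acp5 and Ctsk. No Nfatc1 window was among those searched, which does not show that the table lacked one. The counts are per gene, so they do not tell which start site was used.

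**Figure D2:**
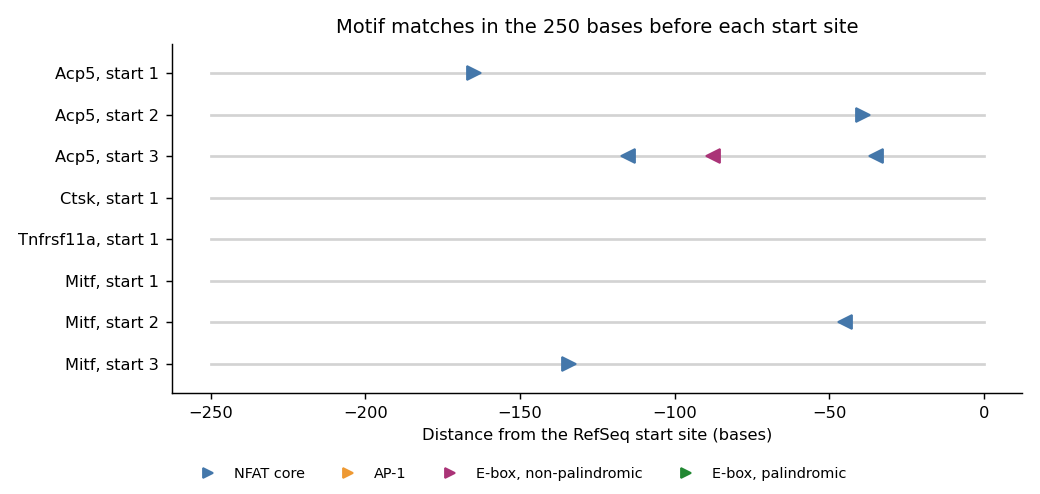
Motif matches in the 250 bases before each RefSeq start site of Acp5, Ctsk, Tnfrsf11a and Mitf; the horizontal axis is the distance from the start site in bases, and arrowheads point along the strand of the match. The third Acp5 start site is the only window drawn with an E-box match. GGAAA, the NFAT core, is in 5 of the 8 windows, against 55.6% of all 32851 windows of this length.

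Ctsk encodes cathepsin K, the protease that digests bone collagen, and lies on the plus strand of chromosome 3 (chr3:95499256-95509362). It had 18, 37 and 28 counts in RAW and 9, 12 and 22 in ERMAP_shRNA, or 1.24, 2.23 and 1.85 against 0.672, 0.799 and 1.46 CPM. ERMAP_shRNA replicate 3 was above RAW replicate 1, so the groups overlapped. The log2 fold change was -0.85, with a wide 95% interval of -1.76 to 0.06 (edgeR adjusted p = 0.777). The interval contains both 0 and more than a 2-fold decrease. The log2 fold change without RAW replicate 1 was -1.05 (edgeR adjusted p = 0.153).

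Mmp9, the gelatinase of chromosome 2 (plus strand, chr2:164940780-164955850), had 2, 9 and 7 counts in RAW and 3, 5 and 4 in ERMAP_shRNA. The ratio of summed counts, ERMAP_shRNA over RAW, was 0.706 with an exact 95% interval of 0.310 to 1.55, counting error only. The libraries overlapped and no difference was detectable at this depth.

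Atp6v0d2 (ENSMUSG00000028238) encodes the d2 subunit of the vacuolar proton pump, the isoform enriched in osteoclasts, where the pump acidifies the resorption pit. The gene lies on the minus strand of chromosome 4 (chr4:19876841-19922605). RAW libraries had 19.3, 10.2 and 8.52 CPM, from 279, 169 and 129 counts, and ERMAP_shRNA libraries had 0.897, 2.40 and 2.13 CPM, from 12, 36 and 32 counts. Both groups held 1 library apart from the other two: RAW replicate 1 was the highest and ERMAP_shRNA replicate 1 the lowest. The decrease was 6.90-fold (log2 fold change -2.79, SE 0.43, 95% interval -3.77 to -1.80, edgeR adjusted p = 0.0233). Without RAW replicate 1 it was -2.35 (edgeR adjusted p = 1.29e-06). Atp6v0d2 kept its call in 11 of the 16 alternative analyses. The call was lost without ERMAP_shRNA replicate 1, 2 or 3 (edgeR adjusted p = 0.0875, 0.0874 and 0.128 in turn). It was also lost with replicate numbers as a block (edgeR adjusted p = 0.107) and in limma-voom (adjusted p = 0.0548). In the analyses that lost the call, the log2 fold change stayed at -2.47 or lower.

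**Figure D3:**
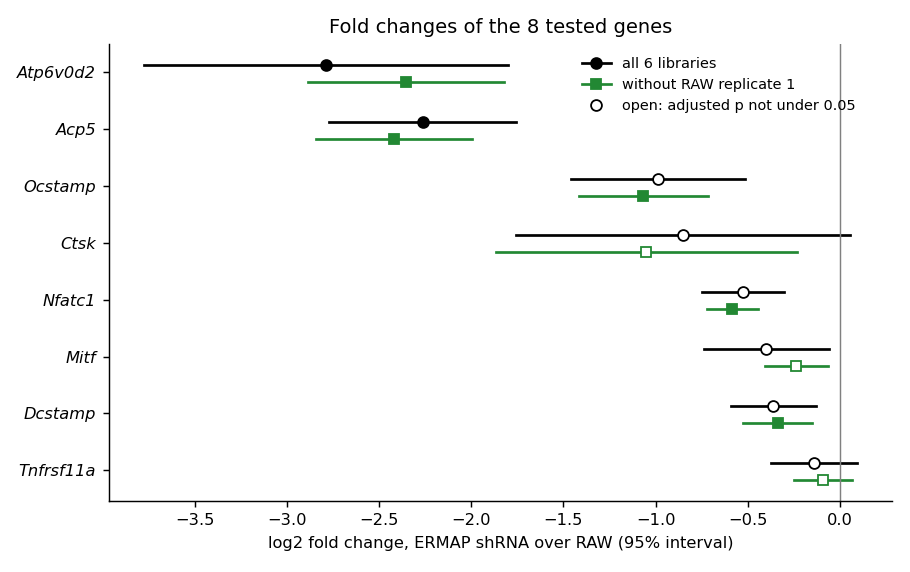
Log2 fold changes of the 8 tested genes (horizontal axis) with 95% intervals from edgeR, with all 6 libraries (circles) and without RAW replicate 1 (squares); filled symbols have an adjusted p under 0.05. All 16 values lie below 0, Atp6v0d2 and Acp5 are lowest, and the intervals are narrower without RAW replicate 1.

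The other proton pump genes did not share the size of the Atp6v0d2 change. Atp6v0d1, the ubiquitous d subunit, had 59.3, 61.8 and 54.8 FPKM in RAW and 57.7, 54.7 and 50.6 FPKM in ERMAP_shRNA (log2 fold change -0.12, edgeR adjusted p = 0.937). The groups overlapped. Of the summed FPKM of both d subunits, Atp6v0d2 made up 10.6%, 5.68% and 5.38% in RAW and 0.564%, 1.58% and 1.52% in ERMAP_shRNA. The d2 share was thus a small part of the pair in every library and did not overlap between groups. Of 16 other subunits and accessory proteins tested, edgeR called 0 higher and 0 lower, while unadjusted p-values put 0 higher and 2 lower, and DESeq2 called 0. In this list 14 of 16 log2 fold changes were below 0, with a median of -0.13 and a range from -0.35 to 0.16. Below 0 were 51.7% of all tested genes. Tcirg1, a further pump subunit, was listed with the resorption genes and is not among the 16. Its groups overlapped, with a log2 fold change of 0.10 (edgeR adjusted p = 0.949). Atp6v1b2, a catalytic-sector subunit with the smallest p of the list, had -0.22 (edgeR adjusted p = 0.53), and it was called lower without RAW replicate 1 (-0.23, 0.0345).

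**Figure D4:**
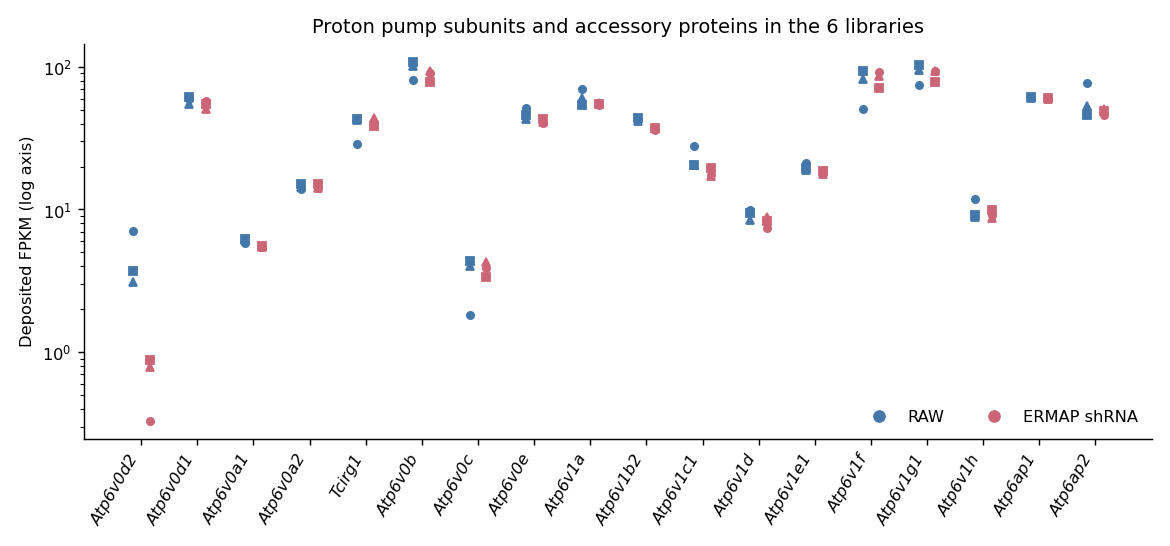
Deposited FPKM (log axis) of 18 proton pump genes in each library, RAW in blue and ERMAP_shRNA in red, with symbols for the replicate number as in the plot of levels per gene. Atp6v0d2 is the lowest gene in the ERMAP_shRNA libraries, and Atp6v0d1 lies between 50.6 and 61.8 FPKM in all 6 libraries.

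The position of RAW replicate 1 among the RAW libraries differed between the genes, and is given here beside their GC content. A link between them was not tested. Some positions were close, as for Tnfrsf11a, with 102.4 CPM in RAW replicate 1 and 99.2 CPM in RAW replicate 3. Of the 9 genes other than Itgb3, it was the highest RAW library for Atp6v0d2, Mitf, Dcstamp and Tnfrsf11a, whose transcripts have 41.4%, 47.8%, 48.1% and 48.5% GC. It was the lowest for Ctsk, Ocstamp, Nfatc1, Mmp9 and Acp5, with 48.9%, 53.5%, 54.1%, 54.1% and 55.2% GC. The median of tested genes was 49.8%. With offsets for GC content in each library, log2 fold changes were -2.61 for Atp6v0d2, -2.31 for Acp5, -1.02 for Ocstamp, -0.57 for Nfatc1, -0.37 for Mitf and -0.34 for Dcstamp. The number called lower was then 5 of 8, against 1.36% of all tested genes, and they were Acp5, Atp6v0d2, Ocstamp, Nfatc1 and Dcstamp.

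Genes that feed into or work beside these were grouped by role. Lists by role held 142 further genes, of which 126 were tested: edgeR called 0 higher and 1 lower, Fosl2, while unadjusted p-values put 11 higher and 8 lower, and DESeq2 called 1 higher and 2 lower. Over all tested genes, edgeR called 1.01% higher and 0.136% lower, unadjusted p-values put 3.71% higher and 3.04% lower, and DESeq2 called 1.62% higher and 0.568% lower; the same shares apply to each list below. The median log2 fold change of these 126 was -0.01, the same to 2 decimals as over all tested genes. Without RAW replicate 1, 8 were called higher and 12 lower, against 2.67% and 2.19% of all tested genes. By list, those higher and lower without that library numbered 0 and 1 in RANK signalling, 1 and 1 in ITAM co-receptors, 0 and 0 in the CSF1 receptor arm, 1 and 2 in calcium and calcineurin, 1 and 2 in activators, 2 and 0 in repressors, 2 and 1 in resorption, 0 and 2 in the proton pump, 0 and 1 in fusion and 1 and 2 in attachment.

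Fosl2 encodes Fra-2, an AP-1 subunit known to act in osteoclasts. It had 151.3, 171.6 and 190.7 CPM in RAW and 97.5, 86.6 and 98.7 CPM in ERMAP_shRNA, with no overlap. Its log2 fold change was -0.86 (SE 0.11, edgeR adjusted p = 0.0113). The call was lost without RAW replicate 3 (adjusted p = 0.0549) or without ERMAP_shRNA replicate 1, 2 or 3 (0.0875, 0.0903 and 0.0852). Of the 18 transcription activators tested, which include other AP-1, NF-kB and MITF-family genes, Fosl2 was the 1 called lower and 0 were called higher, while unadjusted p-values put 2 higher and 1 lower. The median of this list was 0.12.

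In the list for calcium and calcineurin, the pathway that activates NFATc1, 0 of 13 genes were called by edgeR or DESeq2. Unadjusted p-values put 1 higher and 2 lower, and the median was -0.04. Not every gene of the list activates the pathway. Rcan1, a calcineurin regulator that is itself a target of NFAT, had the smallest p. It had 37.8, 41.4 and 37.4 CPM in RAW and 28.3, 31.1 and 28.2 CPM in ERMAP_shRNA, without overlap. Its log2 fold change was -0.41 (edgeR adjusted p = 0.218), and it was called lower without RAW replicate 1 (-0.44, edgeR adjusted p = 0.00537).

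In the list of transcription repressors edgeR called 0 of 9 genes. Not every gene of the list represses the osteoclast program. Unadjusted p-values put 3 higher and 0 lower, against 3.71% and 3.04% of all tested genes. DESeq2 called 1 higher, against 1.62% of all tested genes. The 3 were the Id genes, whose products block helix-loop-helix factors; Id1 and Id2 were picked after their values were seen. Id3 had 52, 167 and 150 counts in RAW and 237, 256 and 261 in ERMAP_shRNA. RAW replicate 1 was far below the other RAW libraries, and the groups did not overlap in CPM. The log2 fold changes were 1.14 for Id3 (edgeR adjusted p = 0.327), 1.16 for Id1 (0.645) and 0.54 for Id2 (0.409). Id1 rested on few counts, 3, 11 and 13 in RAW and 17, 23 and 17 in ERMAP_shRNA. Without RAW replicate 1, Id3 (0.79, adjusted p = 0.000271) and Id2 (0.61, 0.0137) were called higher and Id1 (0.78) was not.

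The RANK signalling list had 0 of 15 genes called by edgeR, 0 at an unadjusted p under 0.05 and 0 by DESeq2. Gab2, an adaptor that RANK recruits, had its smallest p (log2 fold change -0.24, edgeR adjusted p = 0.799). The ITAM co-receptor list had 0 of 11 called by edgeR or DESeq2, while unadjusted p-values put 1 higher and 1 lower. Blnk, an adaptor below the ITAM kinases, had 0.51 (edgeR adjusted p = 0.258), and 0.60 with a call without RAW replicate 1 (adjusted p = 0.000627). The CSF1 receptor list had 0 of 7 called by edgeR, 0 at an unadjusted p under 0.05 and 0 by DESeq2, and Csf1r, the receptor that keeps the lineage alive, had 0.14 (edgeR adjusted p = 0.929) and 0.09 without RAW replicate 1. The log2 fold changes ranged from -0.24 to 0.21 in the RANK list, from -0.55 to 0.51 in the ITAM list and from -0.11 to 0.14 in the CSF1 receptor list, with medians of -0.05, -0.01 and 0.05.

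Acid and matrix resorption genes other than the 10 had 0 of 13 called by edgeR or DESeq2, while unadjusted p-values put 3 higher and 0 lower. Ctsb, the lysosomal protease cathepsin B, had a log2 fold change of 0.23 (edgeR adjusted p = 0.489), and it was called higher without RAW replicate 1 (0.21, 0.04). The cell fusion list had 0 of 9 called by edgeR or DESeq2, while unadjusted p-values put 0 higher and 1 lower: Cd9, a tetraspanin of fusing cells, at -0.30 (edgeR adjusted p = 0.555), -0.19 without RAW replicate 1 (0.0811) and, with GC offsets, -0.27 with a call (0.0441). Medians of these lists were 0.03 and 0.04, against -0.69 in the 8 tested genes of the 10. In the attachment and actin ring list edgeR called 0 of 15, while unadjusted p-values put 1 higher and 1 lower, and DESeq2 called 0 higher and 1 lower. Dock5, a Rac activator that osteoclasts need for their actin ring, had 130.3, 123.0 and 137.1 CPM in RAW and 86.5, 98.2 and 94.4 CPM in ERMAP_shRNA (log2 fold change -0.48, edgeR adjusted p = 0.0696). Without RAW replicate 1 it was called lower (-0.49, adjusted p = 9.24e-05). Spp1, which encodes osteopontin, a ligand of the vitronectin receptor, was picked after its values were seen. Its log2 fold change was 0.45 (edgeR adjusted p = 0.332), and it was called higher without RAW replicate 1 (0.61, 2.58e-07).

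**Figure D5:**
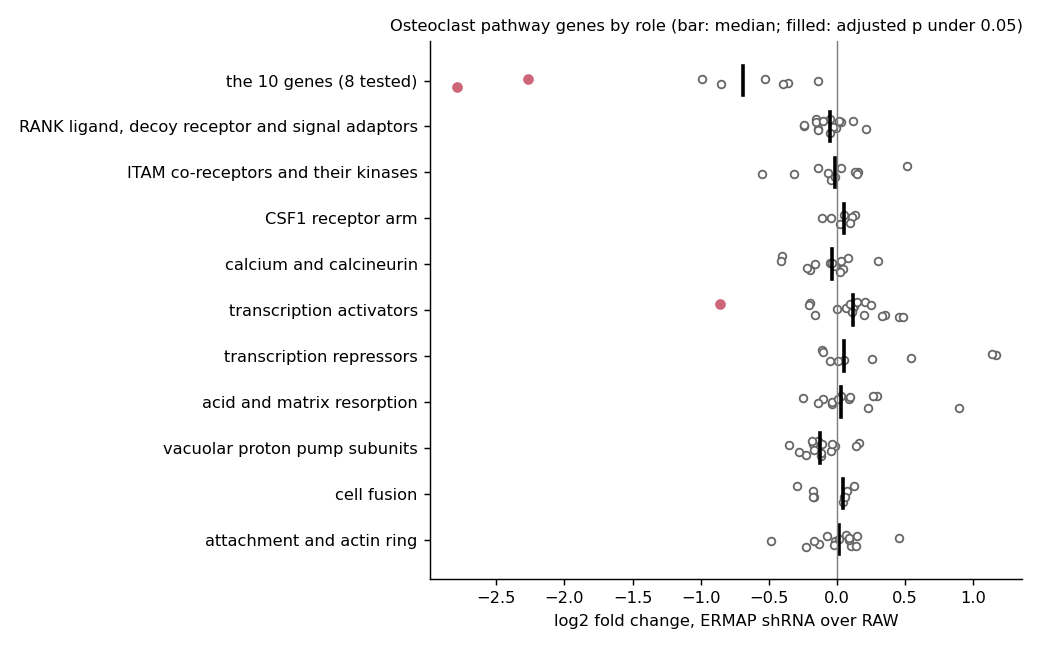
Log2 fold changes (horizontal axis, ERMAP_shRNA over RAW) of the tested genes in each role list, 1 point per gene, with a bar at the median of the list and filled points for an adjusted p under 0.05. Medians of the role lists lie between -0.13 and 0.12, that of the 8 tested osteoclast genes at -0.69, and Acp5, Atp6v0d2 and Fosl2 are the filled points.

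Profiles over the 6 libraries were compared by the root mean square difference of log2(CPM + 0.5) after centring each gene on its mean, a description with no test. Among protein-coding genes the 5 nearest to Acp5 were Vwf (von Willebrand factor, 0.33), Aqp1 (a water channel, 0.34), Kirrel3 (a cell adhesion protein, 0.35), Slc6a4 (the serotonin transporter, 0.37) and Itgax (integrin alpha X, 0.39). Their log2 fold changes were -1.72, -1.47, -1.58, -1.53 and -1.74, all smaller in size than that of Acp5. None of them is in the osteoclast lists used here. Within the 8 tested genes, Nfatc1 and Dcstamp were nearest to each other (0.14), Dcstamp was also nearest to Tnfrsf11a (0.14) and Mitf (0.15), and Nfatc1 was nearest to Ctsk (0.26) and Ocstamp (0.28). Acp5 and Atp6v0d2 stood farther off, at 0.56 from Ocstamp for Acp5 and 0.66 from Acp5 for Atp6v0d2.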

How the data were processed

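The 10 genes and all gene lists were chosen with earlier results of these data known. Tables were deposited by the authors, with raw counts and with FPKM for each gene and library. Per the submitters' processing notes, HISAT2 was the aligner and mm10 the genome. The program that counted reads, its strand setting, the annotation and tool versions were not given in the sources used here. In the deposited tables, FPKM equals the count over gene length, scaled by a factor for the library. Column names give the group and a number; every title of a group begins alike, so columns could not be tied to single samples, and replicate numbers in the text are those of the columns. All 10 genes have the same coordinates in GENCODE vM21, whose transcripts gave GC content.

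The main test was edgeR's quasi-likelihood fit (version 4.0.16, under R 4.3.3) on the counts, with TMM factors, filterByExpr at a minimum count of 10, robust dispersion, Benjamini-Hochberg adjustment over 12491 genes. The text names all 10 genes, the called genes of each list or else the one with the smallest p, and genes said to be picked later. Alternatives were other scaling and filters, DESeq2 1.42.0, limma 3.58.1 (voom on counts, trend on log2 FPKM with 1 or 0.1 added), a replicate block, GC offsets per library, and leaving out each library. These tests, apart from those with another filter, fewer libraries or 0.1 added to FPKM, were first tested on simulated counts. Protein sequences were not used here.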

Additional observations from a re-analysis of the deposited data

How the results depend on the processing

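With all 6 libraries edgeR called 126 genes higher and 17 lower, and 2 of the 8 tested genes lower. DESeq2 gave 202, 71 and 4, GC offsets 295, 170 and 5, and the replicate block 81, 3 and 1. Under that block the calls of Atp6v0d2 (-2.71, adjusted p = 0.107) and Fosl2 (-0.86, 0.0601) were lost. No filter on low counts gave 32 genes lower and 4 of the 10, and limma-voom 1 of the 8. Leaving out 1 library gave 73 to 342 higher, 3 to 280 lower and 1 to 5 of the 8, the highest of each without RAW replicate 1 and the lowest without ERMAP_shRNA replicate 3 (also 1 of 8 without ERMAP_shRNA replicate 1 or 2). The cause was not tested, except that leaving out a library leaves fewer samples. The common dispersion was 0.0233, and 0.0045 without RAW replicate 1. None of the 8 genes changed direction in any of the 16 alternatives. Same-numbered libraries had correlations of -0.159, -0.334 and 0.225 in their deviations from group means, so the numbers were not taken to pair the samples, and not every library correlated best with its own number. Counts of 18 or fewer per group limit Mmp9 and Itgb3.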

Other observations

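Csf1 and Tfec were picked after their values were seen, and neither passed the filter on low counts. Csf1 encodes the growth factor that macrophages and osteoclast precursors need to survive. It had 0, 0 and 1 counts in RAW and 7, 7 and 11 in ERMAP_shRNA, a ratio of summed counts of 26.5 (exact 95% interval 4.34 to 1088, counting error only). Tfec, a MITF relative of the macrophage lineage, had 11 counts over the RAW and 2 over the ERMAP_shRNA libraries, a ratio of 0.193 (exact 95% interval 0.0208 to 0.883, counting error only). These intervals leave out the spread between libraries.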
